A study of Mus musculus with 3 samples.

Results

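The genes of the lysosome were examined in mouse blastocysts by low-input RNA-Seq of 3 libraries, of which 1 came from C57BL/6 (B6), a strain that does not develop autoimmune diabetes, and 2 came from NOD, the non-obese diabetic strain that develops it spontaneously. No library was treated. The labels give whole blastocysts as the input and the study's methods give single inner cell masses (ICMs), so values are reported for blastocysts without assigning them to a tissue, and fewer cells of a type cannot be told apart from less RNA per cell. The lists of members named 42 symbols of lysosomal proteases, hydrolases, membrane proteins, their transcription factors and the proton pump. They were chosen by function, with earlier results of these data known. Of the 42 symbols, 41 were found among the 24063 genes of the counts table by the symbol that leads each annotation. Limp2, another name of Scarb2, matched no row of its own. Of the 41 genes, 40 had enough counts to be tested.

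Lysosomes are acidic organelles in which hydrolases degrade proteins, lipids and glycans delivered by endocytosis and autophagy. The vacuolar proton pump acidifies them, with a V0 sector in the membrane that conducts protons and a cytosolic V1 sector that hydrolyzes ATP, and its acidity activates many cathepsins. In antigen-presenting cells, the same proteases degrade the invariant chain and cut antigens into the peptides that MHC class II molecules present, which is the reason these genes were set beside the class II genes. In the blastocyst, the trophectoderm and the primitive endoderm take up maternal protein by endocytosis and digest it in lysosomes.

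The B6 library held 12505685 counts on genes, NOD 1 held 33891715 and NOD 2 held 36171013. The single B6 library was thus the shallowest, and 0 counts in it leave room for 0.220 CPM (counts relative to the TMM-scaled library total), which is 3 counts and covers counting error only. B6 and NOD 1 held counts on the Y-linked genes Ddx3y, Eif2s3y, Kdm5d and Uty, and NOD 2 held 0 counts on each of them, while Xist, the RNA that silences an X chromosome, stood at 19.9 CPM in B6 against 2.03 (NOD 1) and 118 (NOD 2). Among markers of tissues, the 7 trophectoderm genes summed to 2901 CPM in B6 against 1649 (NOD 1) and 1527 (NOD 2), the 7 ICM genes to 371.4, 448.6 and 645.0, and the 8 primitive endoderm genes to 1898, 1411 and 1304, of which Lrp2 gave 1073, 618.2 and 304.0. The 6 trophectoderm genes tested were all lower in both NOD libraries, with log2 fold changes from -0.48 to -1.51 and 0 called. Over all genes tested, 39.4% were lower in both. Members of the ICM and primitive endoderm lists went opposite ways, with Tdgf1 (ICM) and Pdgfra (primitive endoderm) called up (log2 fold change 4.75 and 2.13) and Sox2 (ICM) and Gata6 (primitive endoderm) called down (-2.70 and -1.80). The 8 leukocyte markers found summed to at most 1.06 CPM in any library, with Ptprc, Lyz2, Fcer1g, Cd79a and Csf1r at 0 counts in all 3. Markers of cumulus cells summed to 5.50, 8.44 and 19.7 CPM, all of the NOD values and nearly all of the B6 value from Amhr2. Those of red cells summed to at most 1.70 CPM, and those of oviduct and uterine epithelium to 66.3, 179.6 and 228.8 CPM, most of it Wfdc2. The part of these cell types, and of sex, in the results below was not tested.

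Taken as a group, the 41 lysosomal genes took up a larger share of the NOD libraries than of the B6 library. They held 0.999% of the counts on genes in B6, 1.80% in NOD 1 and 1.86% in NOD 2, or 9167, 18434 and 19761 CPM on the TMM scale. Abundant genes weigh most in these sums, such as Ctsc (71.0, 2474 and 2012 CPM) and Cd63 (1362, 3102 and 2798 CPM). Below B6 in both NOD libraries lay 10 of the 40 members tested. The quasi-likelihood test of edgeR was run on 14456 genes for NOD minus B6. Calls required a change of 2-fold or more with a Benjamini-Hochberg adjusted p below 0.05. Of the 40 members tested, 16 were called up and 0 were called down, whereas 10.3% of all genes tested were called up and 7.39% were called down. Before adjustment, 26 of the 40 had p under 0.05, and so did 39.9% of all genes tested. Since most members are well expressed, the share among genes with a mean of at least 10 CPM is also given: 14% of those genes were called up, against 15 of the 39 members at that level. Because the members were listed with earlier results of these data known, these shares are a description.

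The median log2 fold change of the 40 members was 0.91, also with the member at 0 counts in B6 set to its lower bound, and that of all genes tested was 0.26. Both NOD libraries lay above B6 for 26 members and below it for 10, compared with 45.3% and 39.4% of all genes tested. The spread rests on the 2 NOD libraries alone, with the B6 library assumed to vary like them, and the smallest p that exact permutation allows for a single gene is 0.333. No member was called with limma-voom (24 with an unadjusted p under 0.05, smallest adjusted p = 0.0631) or with edgeR when genes of low count were kept (25, smallest adjusted p = 0.0649).

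**Figure D1:**
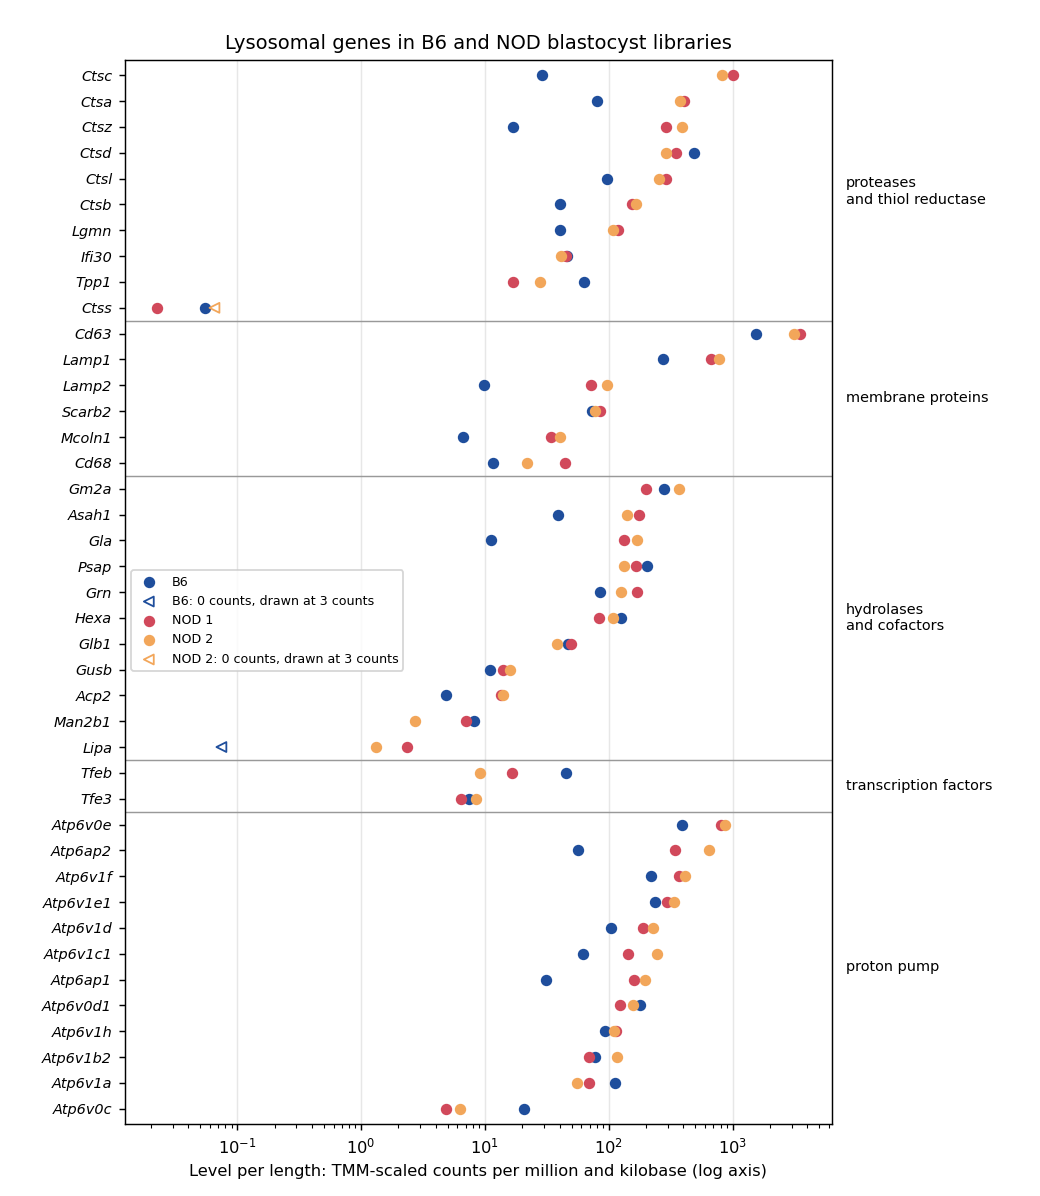
Level per length of the 41 lysosomal genes in each library, in TMM-scaled CPM per kilobase on a log axis, with 1 point per library and genes ordered by NOD level within each role. Ctsc, Ctsz, Gla and Lamp2 lie far to the right of B6 in both NOD libraries, Tfeb, Tpp1 and Atp6v0c lie to the left, and Ctss is near 0 in all 3.

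Among the proteases, the 2 largest differences belonged to cathepsins that trim peptides from their ends. Ctsc encodes cathepsin C, a dipeptidyl peptidase that activates serine proteases of immune cells (NM_009982, mm10 chromosome 7, 88278093 to 88310875). It had 968 counts in B6 against 81792 (NOD 1) and 68467 (NOD 2), which is 71.0 CPM in B6 against 2474 (NOD 1) and 2012 (NOD 2). Both NOD libraries lay far above B6 and close to each other (log2 fold change 4.98, standard error or SE 0.28, edgeR adjusted p = 0.0190). Ctsz, which encodes the carboxypeptidase cathepsin Z (NM_022325, chromosome 2, 174427494 to 174438992), stood at 23.3 CPM in B6 against 403.9 (NOD 1) and 539.0 (NOD 2). Its log2 fold change was 4.34 (SE 0.35, adjusted p = 0.0196), and both NOD libraries lay above B6, as in 45.3% of all genes tested. Ctsz shares 9 bases of its span with Nelfcd, which did not pass (log2 fold change 0.12).

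Ctsa and Ctsb were also called up. Ctsa encodes cathepsin A, a carboxypeptidase that also protects beta-galactosidase and neuraminidase (NM_008906, chromosome 2, 164833773 to 164841032). Its level was 262.5 CPM in B6 against 1334 (NOD 1) and 1230 (NOD 2), a log2 fold change of 2.29 (SE 0.22, adjusted p = 0.0196). Ctsb encodes cathepsin B, an abundant cysteine protease (NM_007798, chromosome 14, 63122462 to 63145923), and stood at 191.6 CPM in B6 against 729.2 (NOD 1) and 789.1 (NOD 2), a log2 fold change of 1.99 (SE 0.23, adjusted p = 0.0212). Because reads were counted on both strands together, reads in the stretch where Ctsa overlaps Pltp (20.9% of its span), and where Ctsb overlaps Fdft1 (3.30%), cannot be assigned to either gene. Neither partner passed, and Pltp was lower in NOD (log2 fold change -0.61), whereas that of Fdft1 was 1.58.

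The proteases that process class II molecules and their ligands were described beside the class II genes, whose values follow at the end. Cathepsin S, the protease that completes the degradation of the invariant chain in most antigen-presenting cells, is encoded by Ctss, which had 1 count in B6 against 1 (NOD 1) and 0 (NOD 2). It was too low to be tested, and the 0 in NOD 2 leaves room for 0.0882 CPM. Cathepsin L does the same work in thymic epithelium and is abundant in many other cells. Its gene Ctsl (NM_009984, chromosome 13, 64363214 to 64370306) stood at 191.1 CPM in B6 against 566.3 (NOD 1) and 495.7 (NOD 2), a log2 fold change of 1.47 (SE 0.24, adjusted p = 0.0283). Of the 50-base words of its transcripts, 26.3% also occur in another gene, nearly all in the predicted gene Gm47123.

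Lgmn encodes legumain, an asparaginyl endopeptidase that makes early cuts in antigens and in the invariant chain (NM_011175, chromosome 12, 102394098 to 102439697). It had 75.4 CPM in B6 against 219.5 (NOD 1) and 199.99 (NOD 2), and rose by a log2 fold change of 1.48 (SE 0.27, adjusted p = 0.0329). Ifi30 encodes the thiol reductase GILT, which opens disulfide bonds of antigens and is induced by interferon gamma in other cells (NM_023065, chromosome 8, 70762773 to 70766663). With 44.9 CPM in B6 against 44.0 (NOD 1) and 40.1 (NOD 2), it did not pass (log2 fold change -0.10, SE 0.35, adjusted p = 0.853). Its NOD values both lay just below B6, by less than 1 standard error.

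Ctsd and Tpp1 were lower in both NOD libraries and did not pass. Cathepsin D, the main aspartic protease of the lysosome, was the protease gene with the highest level per length in B6, at 485.8 CPM per kilobase, and in NOD its 318.0 stood below the 910.7 of Ctsc, the 390.4 of Ctsa and the 340.4 of Ctsz. Ctsd had 943.8 CPM in B6 against 676.1 (NOD 1) and 559.8 (NOD 2), a log2 fold change of -0.61 (SE 0.22, adjusted p = 0.108). Of its 50-base words, 32.4% also occur in the predicted gene Gm49369. Tpp1, which encodes a tripeptidyl peptidase, had 219.6 CPM in B6 against 58.4 (NOD 1) and 96.4 (NOD 2). Its log2 fold change of -1.50 (SE 0.37) missed the threshold (adjusted p = 0.0552), and was called down with total counts only (adjusted p = 0.0489), with DESeq2 (7.19e-04), with thinned NOD libraries (0.0316) and with the default dispersion of edgeR (0.0275). In all, 6 of the 9 protease and reductase genes tested were called up and 0 down, against 10.3% and 7.39% of all genes tested. The median log2 fold change of the 9 was 1.48.

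**Figure D2:**
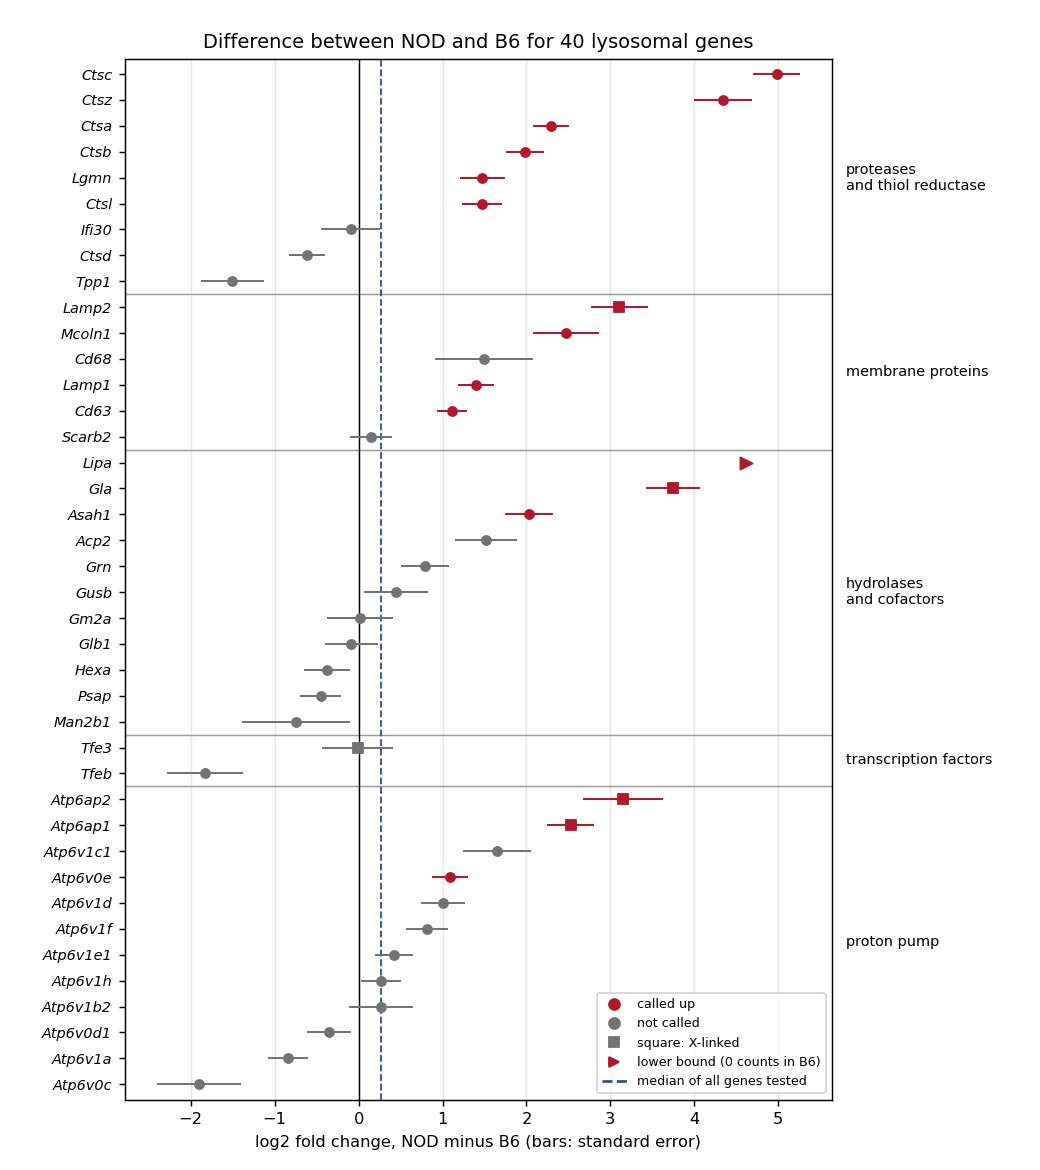
Log2 fold change of NOD minus B6 for the 40 genes tested, with bars of 1 standard error and genes grouped by role. The triangle for Lipa is a lower bound because B6 had 0 counts, squares are X-linked genes, and the dashed line is the median of all genes tested, 0.26.

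The membrane proteins of the lysosome included 4 of 6 called up, against 10.3% of all genes tested. All 6 lay above B6 in both NOD libraries, as did 45.3% of all genes tested. The glycoproteins LAMP-1 and LAMP-2 coat the inner face of the lysosomal membrane. Lamp1 (NM_010684, chromosome 8, 13159135 to 13175338) stood at 615.7 CPM in B6 against 1492 (NOD 1) and 1749 (NOD 2), a log2 fold change of 1.40 (SE 0.21, adjusted p = 0.0259). Lamp2 (NM_010685, chromosome X, 38419503 to 38456460) rose from 35.1 CPM in B6 to 259.4 in NOD 1 and 347.0 in NOD 2 (log2 fold change 3.11, SE 0.34, adjusted p = 0.0204). Per length, Lamp1 exceeded Lamp2 in every library, by 274.4 to 9.76 CPM per kilobase in B6 and by 722.2 to 84.2 in NOD.

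Mcoln1 encodes mucolipin 1, a channel that releases calcium from lysosomes (NM_053177, chromosome 8, 3500519 to 3515231). It had 13.3 CPM in B6 against 67.8 (NOD 1) and 79.5 (NOD 2), a log2 fold change of 2.47 (SE 0.40, adjusted p = 0.0283). Cd63, a tetraspanin of late endosomes and exosomes (NM_007653, chromosome 10, 128909866 to 128912818), had the highest level per length of all members, with 1532 CPM per kilobase in B6 against 3489 (NOD 1) and 3147 (NOD 2). Its log2 fold change was 1.12 (SE 0.18, adjusted p = 0.0282), near the 2-fold limit. Scaling to the total counts alone, which lowered the median of all genes to 0.07, gave Cd63 a log2 fold change of 0.93, which is under the 2-fold limit.

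Cd68 and Scarb2 did not pass. Cd68, a glycoprotein best known from macrophages, had 14.5 CPM in B6 against 54.4 (NOD 1) and 27.1 (NOD 2), and its log2 fold change of 1.49 had an adjusted p of 0.130 by edgeR. Its level was 1.01 lower in NOD 2 than in NOD 1 on the log2 scale. Scarb2 encodes LIMP-2, the receptor that carries beta-glucocerebrosidase to lysosomes, and stood at 153.5 CPM in B6 against 177.9 (NOD 1) and 161.6 (NOD 2) (adjusted p = 0.680).

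Of the 11 hydrolases and their cofactors, 3 were called up (27.3%) and 0 down, against 10.3% and 7.39% of all genes tested. Among the 3 is Lipa, which entered the test through its NOD counts alone. The median log2 fold change of the 11 was 0.44. Gla encodes alpha-galactosidase A, which removes terminal galactose from glycolipids and is lacking in Fabry disease (NM_013463, chromosome X, 134588169 to 134601005). It stood at 34.1 CPM in B6 against 402.6 (NOD 1) and 512.6 (NOD 2), a log2 fold change of 3.75 (SE 0.32, adjusted p = 0.0196). Asah1 encodes acid ceramidase (NM_019734, chromosome 8, 41340643 to 41374697) and had 86.7 CPM in B6 against 395.2 (NOD 1) and 315.7 (NOD 2), a log2 fold change of 2.03 (SE 0.29, adjusted p = 0.0242). In each of these genes both NOD libraries lay well above B6.

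Lipa, which encodes the lipase that frees cholesterol from its esters in lysosomes (NM_001111100, chromosome 19, 34492316 to 34527474), was the lowest member tested. It had 0 counts in B6 against 229 (NOD 1) and 132 (NOD 2), or 6.93 and 3.88 CPM in the NOD libraries. Their mean was at least 24.5-fold higher than in B6, where 3 counts set the floor (adjusted p = 0.0348). Lipa passed the filter on low counts through its NOD counts alone, so it entered the test only because it was high there. With the single dispersion that edgeR estimates by default, an alternative chosen after seeing the data, its adjusted p was 0.135.

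The other hydrolases and cofactors differed by less than their spread allowed to call. Acp2, a lysosomal acid phosphatase, had 22.3 CPM in B6 against 62.4 (NOD 1) and 65.1 (NOD 2), with a log2 fold change of 1.51 (SE 0.37) that missed the threshold (adjusted p = 0.0531), and was called up with DESeq2 (0.00471), with thinned NOD libraries (0.0418) and with edgeR's default dispersion (0.0499). It overlaps Ddb2 over 22.5% of its span. Grn, the gene of progranulin, had 197.1 CPM in B6 against 389.0 (NOD 1) and 293.3 (NOD 2) (log2 fold change 0.79, adjusted p = 0.109).

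Saposins and the GM2 activator are small proteins that lift glycolipids out of membranes for the hydrolases. Psap, which encodes the saposins, stood at 537.1 CPM in B6 against 438.3 (NOD 1) and 347.3 (NOD 2) (log2 fold change -0.45, adjusted p = 0.226). Gm2a was at 1196 CPM in B6 between 847.2 in NOD 1 and 1576 in NOD 2, so that B6 lay within the NOD range. Hexa, which encodes an enzyme subunit that works with the GM2 activator, had 230.9 CPM in B6 against 155.3 (NOD 1) and 199.9 (NOD 2) (log2 fold change -0.38, adjusted p = 0.339). Of the remaining enzymes of glycan breakdown, Glb1 had a log2 fold change of -0.09 and Gusb of 0.44. Man2b1, an alpha-mannosidase, had 35.1 CPM in B6 against 30.1 (NOD 1) and 11.6 (NOD 2), the widest gap between the NOD libraries of any member tested, 1.38 on the log2 scale.

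Of the 12 genes of the proton pump, 3 were called up (25%) and 0 down, against 10.3% and 7.39% of all genes tested. Among all genes with a mean of at least 10 CPM, 14% were called up. The median log2 fold change of the 12 was 0.62. Both accessory proteins were among the 3 pump genes called up. Atp6ap1 and Atp6ap2 encode accessory subunits that help assemble the V0 sector, and Atp6ap2 is also known as the prorenin receptor. Atp6ap2 (NM_027439, chromosome X, 12587759 to 12617051) stood at 131.9 CPM in B6 against 814.2 (NOD 1) and 1531 (NOD 2), a log2 fold change of 3.15 (SE 0.48, adjusted p = 0.0259). Atp6ap1 (NM_018794, chromosome X, 74297097 to 74304721) had 67.4 CPM in B6 against 350.1 (NOD 1) and 425.6 (NOD 2), a log2 fold change of 2.53 (SE 0.28, adjusted p = 0.0210). Both NOD libraries lay above B6 for each, and for Atp6ap2 they also lay 0.91 apart on the log2 scale.

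Of the V0 sector, Atp6v0e, which encodes a small membrane subunit (NM_025272, chromosome 17, 26676396 to 26699646), was called up. It had 308.9 CPM in B6 against 637.5 (NOD 1) and 681.1 (NOD 2), a log2 fold change of 1.09 (SE 0.22, adjusted p = 0.0376). This call was lost with total counts only (log2 fold change 0.91, adjusted p = 0.0510) and with upper-quartile factors (adjusted p = 0.0527). Atp6v0d1, the subunit that joins the sectors, had 289.5 CPM in B6 against 199.0 (NOD 1) and 253.2 (NOD 2) (adjusted p = 0.348). Atp6v0c encodes the proteolipid that forms the rotating ring of the pump, and its level per length was the lowest of the pump's 12 members in each library. It stood at 23.8 CPM in B6 against 5.57 (NOD 1) and 7.17 (NOD 2), a log2 fold change of -1.90 (SE 0.50) that did not pass (adjusted p = 0.0611) and was called down with DESeq2 (0.0371) and with thinned NOD libraries (0.0481). Its counts are uncertain, because Atp6v0c-ps2 covers 99.4% of its span and the handling of multiply aligned reads is not given in the sources used here. Atp6v0c-ps2 itself was called down (log2 fold change -4.08, adjusted p = 0.0277).

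The 7 genes of the V1 sector had a median log2 fold change of 0.42, with 0 called. An unadjusted p under 0.05 was found for 4 of the 7, against the 39.9% of all genes tested. Atp6v1a encodes the catalytic subunit and Atp6v1b2 the other subunit of the ATP-splitting ring. Atp6v1a had 436.8 CPM in B6 against 269.8 (NOD 1) and 217.9 (NOD 2) (log2 fold change -0.84, adjusted p = 0.0729), below B6 in both NOD libraries. Atp6v1b2 had 211.0 CPM in B6 between 187.8 in NOD 1 and 318.6 in NOD 2. Atp6v1c1, which encodes a subunit that holds the sectors together, stood at 128.3 CPM in B6 against 297.2 (NOD 1) and 508.5 (NOD 2), a log2 fold change of 1.65 (SE 0.41, adjusted p = 0.0543) that was called up with DESeq2 (8.56e-05), with thinned NOD libraries (0.0357) and with the default dispersion (0.0252). The stalk subunits Atp6v1d, Atp6v1e1 and Atp6v1f and the regulatory subunit Atp6v1h had log2 fold changes of 1.01, 0.42, 0.82 and 0.27. All 4 lay above B6 in both NOD libraries, as did 45.3% of all genes tested.

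**Figure D3:**
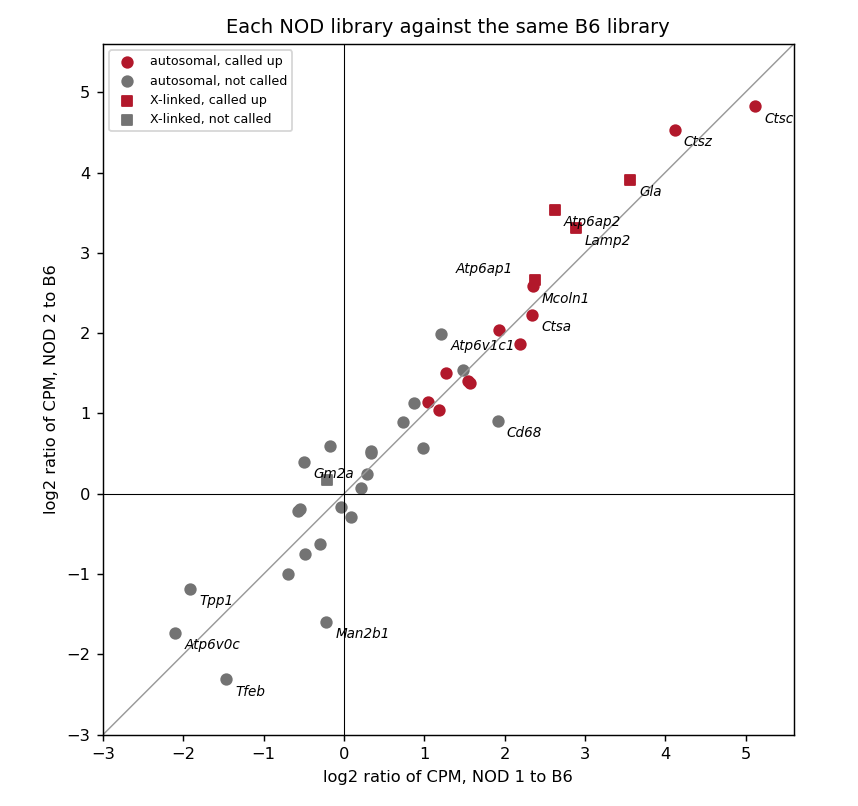
Log2 ratio of CPM to the B6 library for NOD 2 (vertical axis) against NOD 1 (horizontal axis), 1 point for each of the 39 members tested with counts in B6. Points on the diagonal have the same level in both NOD libraries, and since both ratios use the same B6 library the diagonal order holds its error too.

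The NOD libraries were close to each other in most members. The median absolute log2 ratio of NOD 2 to NOD 1 was 0.32 over the members tested and 0.43 over all genes tested. Gaps above 0.7 on the log2 scale were found for Man2b1, Cd68, Atp6ap2, Gm2a, Tfeb, Lipa, Atp6v1c1, Atp6v1b2 and Tpp1. Among these, Atp6ap2 and Lipa were called. Leaving out either NOD library changed the direction of no called member, and NOD 1 alone gave the members a median of 0.93 and NOD 2 alone one of 0.90.

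Of the 5 X-linked members, 4 were called up. These were Gla, Lamp2, Atp6ap1 and Atp6ap2, while Tfe3 had a log2 fold change of -0.01, which gives a median of 3.11 over the 5, compared with 0.79 over the 35 autosomal members tested, of which 12 were called up. Over all 504 X-linked genes tested, 15.1% were called up and 2.38% down, and the median was 1.32. NOD 2, with high Xist and no counts on Y-linked genes, gave the higher value of the NOD libraries for each of the 5, whereas NOD 1 held Y-linked counts as B6 did. Against B6, the median log2 ratio of the 5 was 2.63 in NOD 1 and 3.30 in NOD 2, and that of all X-linked genes tested with counts in both libraries was 0.49 and 1.04. The log2 ratios of the 4 called genes to B6 ran from 2.38 to 3.56 in NOD 1 and from 2.66 to 3.91 in NOD 2. The part of sex in these values was not tested.

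TFEB and TFE3 are transcription factors that enter the nucleus when nutrients are scarce and switch on lysosomal genes. Tfeb (NM_011549, chromosome 17, 47785744 to 47792416) had 1401 counts in B6 against 1231 (NOD 1) and 705 (NOD 2), or 102.8, 37.2 and 20.7 CPM. Both NOD libraries lay below B6, with a log2 fold change of -1.83 (SE 0.45) that did not pass (adjusted p = 0.0552). It was called down with DESeq2 size factors in the same test (adjusted p = 0.0494), with edgeR's default dispersion (0.0265), with DESeq2 (9.11e-04) and with the NOD libraries thinned to the depth of B6 (0.0345). Tfe3 stood at 24.4 CPM in B6 against 21.0 (NOD 1) and 27.4 (NOD 2), so that B6 lay within the NOD range.

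The nutrient control of these factors runs through the Rag GTPases, their anchor Ragulator, folliculin and the kinase mTORC1 on the lysosomal surface. Of 14 such genes and relatives tested, 0 were called up and 3 were called down (21.4%), against 10.3% and 7.39% of all genes tested. Rptor, which encodes the mTORC1 subunit that binds Rag GTPases, stood at 91.9 CPM in B6 against 17.0 (NOD 1) and 12.5 (NOD 2) (log2 fold change -2.64, adjusted p = 0.0244). Flcn, the gene of folliculin, and Fnip1, the gene of its partner, had log2 fold changes of -1.68 (adjusted p = 0.0468) and -2.37 (adjusted p = 0.0248). The Rag genes Rraga, Rragc and Rragd had log2 fold changes from -0.21 to 0.06, and the 5 Ragulator genes from -0.16 to 0.71, with 0 called. The level of Mtor was 27.7 CPM in B6, between 51.8 in NOD 1 and 22.4 in NOD 2.

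The proteins of this family bind the E-box CACGTG, which is frequent before lysosomal genes within longer sites, so the RefSeq promoter windows (GRCm38.p6, the same assembly as mm10) were searched for it. The window runs from 250 bases before to 50 bases after the gene start, and a window was found for 36 of the 41 members and for 10701 of the genes tested. CACGTG, which reads the same on both strands, was present in 11 of the 36 member windows (30.6%) and in 10.1% of the windows of all genes tested. The longer TCACGTGA, which contains it, was present in 8 of them (22.2%) and in 1.83% of all. By call, 6 of 14 windows of members called up held CACGTG, and so did 5 of 21 windows of members tested and not called. For TCACGTGA these were 4 of 14 and 4 of 21. A match is a stretch of letters in the reference and says nothing of binding. The part of this site in the differences was not tested.

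The stretches with CACGTG in capitals are shown, 5′ to 3′ on the strand of the gene, for 3 members that were called up and 2 that were not. Those of Mcoln1 (chr8:3500433-3500494, plus strand), Gla (chrX:134601179-134601247, minus strand), Lamp1 (chr8:13159085-13159132, plus strand), Ifi30 (chr8:70766839-70766874, minus strand) and Ctsd (chr7:142387905-142388077, minus strand) all lie before the start of the gene.
Mcoln1: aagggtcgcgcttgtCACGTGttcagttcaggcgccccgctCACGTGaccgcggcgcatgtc
Gla: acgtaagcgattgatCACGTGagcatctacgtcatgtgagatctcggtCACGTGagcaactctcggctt
Lamp1: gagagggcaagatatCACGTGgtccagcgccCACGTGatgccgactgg
Ifi30: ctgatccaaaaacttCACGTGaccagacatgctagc
Ctsd: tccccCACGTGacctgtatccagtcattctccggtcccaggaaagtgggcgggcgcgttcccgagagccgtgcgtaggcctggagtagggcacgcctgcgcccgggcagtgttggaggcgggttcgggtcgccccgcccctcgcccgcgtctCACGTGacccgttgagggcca
Mcoln1, Gla and Lamp1, with 2 copies each in the stretch shown (Lamp1 has 4 in its window), had log2 fold changes of 2.47, 3.75 and 1.40, and Ctsd, also with 2 copies, of -0.61. Ctsc and Ctsz, the proteases with the largest differences, had no CACGTG in the window.

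Other genes of the lysosome were taken from lists that did not include the members. Of 92 tested, 14 were called up (15.2%) and 8 down (8.70%), with a median log2 fold change of 0.43. Over all genes tested these values were 10.3%, 7.39% and 0.26, and 14% of genes with a mean of at least 10 CPM were called up, so the pooled shares lay near the background, while single lists ranged from 0% to 33.3% called up and from 0% to 21.4% called down. Genes that passed are named by list, at most 6 in each.

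**Figure D4:**
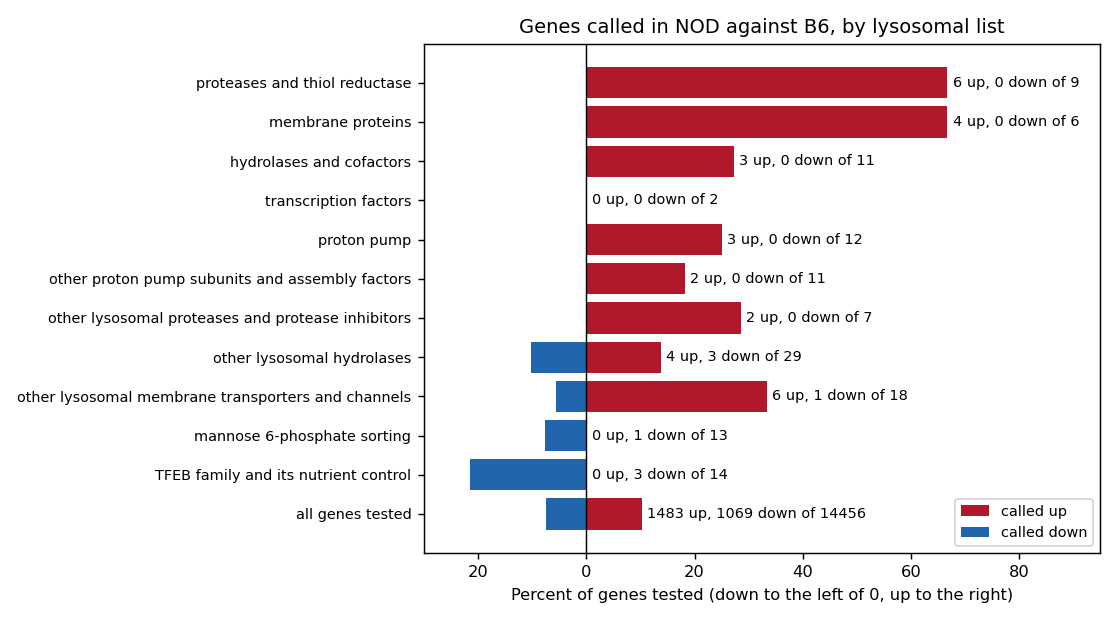
Percent of genes tested that were called up (right of 0) or down (left of 0) in NOD, for the members by role, for other lysosomal lists and for all genes tested, with the counts beside each bar. The proteases and the membrane proteins among the members had 66.7% of genes called up, and the TFEB family and its nutrient control had 21.4% called down.

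The list of membrane transporters and channels held 18 genes tested, 6 of them called up and 1 down. Cd164, which encodes a sialomucin, stood at 141.9 CPM in B6 against 897.0 (NOD 1) and 830.8 (NOD 2) (log2 fold change 2.61, adjusted p = 0.0196). Slc38a9, the arginine sensor of mTORC1, had 7.26 CPM in B6 against 32.1 (NOD 1) and 40.5 (NOD 2) (2.32, adjusted p = 0.0386), and Mfsd8, Laptm4b and Tmem192 had log2 fold changes of 2.58, 2.07 and 1.71. Clcn7, the chloride-proton exchanger that accompanies the pump, was called down, from 91.6 CPM in B6 to 23.1 in NOD 1 and 13.7 in NOD 2 (-2.31, adjusted p = 0.0356).

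Among 29 other hydrolases, 4 were called up and 3 down. Hyal2, a hyaluronidase, had 2.79 CPM in B6 against 69.5 (NOD 1) and 75.6 (NOD 2) (log2 fold change 4.70, adjusted p = 0.0196). Acp5 and Ppt2 were also called up (2.70 and 3.75), and the sulfatase gene Arsa and the nuclease gene Dnase2a were called down (-1.91 and -2.07). Ppt2 and Neu1 lie in the class III region of the MHC, and Neu1, the neuraminidase that cathepsin A protects, had a log2 fold change of 0.28 (adjusted p = 0.412).

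Of 7 other proteases and protease inhibitors tested, 2 were called up. Cst3 encodes cystatin C, an inhibitor of cysteine cathepsins, and had 96.3 CPM in B6 against 382.4 (NOD 1) and 298.6 (NOD 2) (log2 fold change 1.82, adjusted p = 0.0277). The other inhibitor gene, Cstb, did not pass (0.74, adjusted p = 0.0593). Of the cysteine cathepsin genes, Ctsb, Ctsc, Ctsl and Ctsz were called up against the same B6 library. Ctsh (log2 fold change 0.82) and Ctsf (-2.55) were not called, and Ctss was too low to be tested. Scpep1 (1.89, adjusted p = 0.0261) overlaps the antisense gene Scpep1os over 38.3% of its span, which had 3 counts in B6 against 489 (NOD 1) and 655 (NOD 2) and entered the test through its NOD counts alone. Of 11 other pump subunits and assembly factors tested, Atp6v0b, another proteolipid gene, rose from 345.6 CPM to 1144 and 905.5 (1.57, adjusted p = 0.0280), and Tmem199, an assembly factor, passed as well (1.62, adjusted p = 0.0469). Of 13 genes that sort hydrolases to lysosomes by mannose 6-phosphate, 0 were called up and Gga1, a sorting adaptor, was called down (-2.37, adjusted p = 0.0254), while the receptor genes M6pr and Igf2r had log2 fold changes of 0.88 and -2.21 and did not pass.

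The class II genes that these proteases serve in antigen-presenting cells are given for comparison. Of 9 class II genes and chaperones tested, 7 were called up. This count cannot be weighed against the 10.3% of all genes tested, because most of the 7 entered the test through their NOD counts alone. Not called were H2-Oa and Ciita, the class II transactivator. H2-Oa had 51.1 CPM in B6 against 11.3 (NOD 1) and 44.8 (NOD 2), a log2 fold change of -0.87. Ciita had 5 counts in B6 against 80 (NOD 1) and 35 (NOD 2) (adjusted p = 0.320). Of the 7, H2-Aa, H2-Ab1, H2-DMa, H2-DMb1 and H2-DMb2 had at most 2 counts in B6 and passed the filter on low counts through their NOD counts alone, so their count is a description. H2-DMa, which helps load class II molecules with peptides, had 1 count in B6 against 5132 (NOD 1) and 5068 (NOD 2), and Cd74, the invariant chain itself, had 6, 6858 and 5247. The protease genes Ctsb, Ctsl and Lgmn rose by log2 fold changes of 1.99, 1.47 and 1.48 in the same libraries, Ifi30 did not pass, and Ctss had at most 1 count in any library. The leukocyte markers summed to at most 1.06 CPM in any library, with Coro1a at 1 count in B6 against 10 (NOD 1) and 32 (NOD 2). The part of leukocytes in the class II values was not tested. All of these comparisons use the same B6 library.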

How the data were processed

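The deposited values were read counts. Per the file headers and the study's methods, the authors aligned single-end reads to mm10 with STAR, and used HOMER to count exonic reads of either strand, keeping 1 transcript per RefSeq gene and leaving the counts unnormalized. The cDNA had been amplified by PCR without molecular identifiers. The handling of multiply aligned reads is not given in the sources used here. The table's gene spans overlap those of GENCODE M21 (GRCm38) for 98.6% of 22829 symbols found in both.

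Counts were filtered by filterByExpr (minimum count 10), given TMM factors (1.09, 0.975 and 0.941 for B6, NOD 1 and NOD 2) and tested in R 4.3.3 with edgeR 4.0.16 (quasi-likelihood test, trended dispersion, prior count 0.125, adjustment over 14456 genes). Standard errors were obtained from the log2 fold change and its F statistic. One count stood for 0.0734, 0.0303 and 0.0294 CPM. Alternatives used limma 3.58.1 and DESeq2 1.42.0, and others are given at the end. Words shared between genes were counted in GENCODE M21 transcripts with Python 3.11.15.

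Every member was accounted for. The genes named with full values were those that passed, the class II proteases and both transcription factors, with further members for the range, and from other lists up to 6 genes each that passed at a mean of 10 CPM or more. Other genes named were chosen after their values were seen. The values of 1 gene that passed are not reported here. The members and lists were chosen with earlier results of these data known. The labels do not say that the NOD libraries came from separate litters, so that p-values measure only the spread between them.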

Additional observations from a re-analysis of the deposited data

How the results depend on the processing

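Of the 16 members called up, 16 remained called with DESeq2 size factors, with DESeq2 and with NOD libraries thinned to the depth of B6, 15 with upper-quartile factors and with edgeR's default dispersion (an alternative chosen after seeing the data), and 14 with total counts only. With genes of low count kept and with limma-voom, 0 members and 0 genes in all were called in either direction, and the cause was not tested. Members called down numbered 0, but 1 with DESeq2 size factors (Tfeb), 1 with total counts only (Tpp1), 2 with the default dispersion (both), 3 with DESeq2 and 3 with thinned libraries (both and Atp6v0c). Members called up numbered 19 with DESeq2 (Acp2, Atp6v1c1 and Cd68 gained), 18 with thinned libraries (Acp2 and Atp6v1c1 gained) and 18 with the default dispersion (Acp2, Atp6v1c1 and Atp6v1d gained, Lipa lost). The members' median of 0.91 moved to 0.87 with DESeq2 size factors, with DESeq2 and with thinned libraries, to 0.84 with genes of low count kept and to 0.72 with total counts only, which lowered the median of all genes from 0.26 to 0.07 and the share of calls that were up from 58.1% to 47.8% (47.3% with the default dispersion). Without either NOD replicate it was 0.90 to 0.93, as values with no test. Over all genes, 1483 were called up and 1069 down, against 2365 and 1887 with DESeq2, 701 down with upper-quartile factors and 1619 down with thinned libraries. No called member changed direction under any alternative. The 1 B6 library could not be left out. No paired analysis was possible because B6 has a single library, so that the groups share fewer than 2 replicate numbers.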
